A study of Homo sapiens with 6 samples.

Results

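Microtubules are hollow filaments built from dimers of alpha-tubulin and beta-tubulin, and they carry cargo in interphase and separate chromosomes in mitosis. Several genes encode each tubulin, and their products, called isotypes, differ mostly at the carboxyl-terminal tail. Gamma-tubulin starts new microtubules, cofactors help tubulin to fold and to pair, and microtubule-associated proteins (MAPs) bind the filament or the free dimer and change how fast it grows or shrinks. CRMP2 is itself such a protein: in neurons it binds tubulin dimers and promotes axon growth. Cells also control tubulin mRNA directly, since the mRNA being translated is degraded when free tubulin is in excess, a process called autoregulation.

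The genes described here are 43 protein-coding genes chosen by name: the numbered alpha-, beta-, gamma-, delta- and epsilon-tubulins, the tubulin cofactors TBCA to TBCE, the end-binding proteins MAPRE1 to MAPRE3, the stathmins STMN1 to STMN4, the structural MAPs MAP1A, MAP1B, MAP1S, MAP2, MAP4, MAP6, MAP7, MAPT and DCX, and CLASP1 and CLASP2. The rule reads gene names and no measured value, but earlier results of these data were known when it was set. They are 43 of the 44591 genes listed in the files, of which 19233 are protein-coding. TUBB, an abundant beta-tubulin gene whose symbol has no number, falls outside the rule and is given where a result turns on it.

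RNA came from A2780, a human ovarian cancer cell line with a wild-type genotype in the labels, grown in DMEM with serum. There were 3 untreated control libraries and 3 libraries of cells given recombinant human CRMP2 (r-CRMP2) at 40 ng/ml in the medium, all labelled 48 h. The labels number the replicates without saying whether they were separate cultures, so the p-values measure the spread between these libraries, which may be technical. Libraries held between 21888530 and 25711353 counts. Values per gene are CPM, counts scaled to a common library total with factors from TMM (trimmed mean of M values), and genes were compared by the quasi-likelihood method of edgeR, with p-values adjusted by Benjamini-Hochberg over 16222 genes. SE is the standard error of a log2 fold change. A gene is called higher or lower at an adjusted p-value under 0.05.

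Facts of the libraries bear on every value below. The median gene stood at -0.03 on the log2 scale after TMM and at -0.34 when only library size was used, a shift of -0.31, so calls that depend on the scaling are given under both. r-CRMP2 replicate 3 stood apart at low counts, with 22153 genes at 0 against 18289 to 19439 in the other libraries and 2125 genes at a single count against 3396 to 3627. Of the markers of A2780's labelled type, KRT7, KRT8 and KRT18 were abundant, while CDH1 and WT1 stayed under 1 CPM in every library. DPYSL2, the gene of endogenous CRMP2, read 82.7 ± 2.97 CPM untreated and 130.4 ± 7.01 CPM treated (SD, n = 3 per group) and rose, which is 0.66 on the log2 scale (SE 0.05, edgeR adjusted p = 5.48e-08). In bulk RNA, a change in the kinds of cells present and a change in RNA per cell cannot be told apart.

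The start of the coding sequence is shown first, because autoregulation reads it: the factor TTC5 recognises the first residues of alpha- and beta-tubulin as they leave the ribosome. The sequences below are the first 30 coding bases, 5′ to 3′ in the sense of the mRNA, from the GENCODE transcripts of GRCh38, with the first 4 codons in capitals. They are a choice from each class: alpha- and beta-tubulins that were abundant, called higher or called lower, TUBB, a gamma-tubulin and the delta-tubulin.
TUBA1B: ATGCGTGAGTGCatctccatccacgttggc
TUBA4A: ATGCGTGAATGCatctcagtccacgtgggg
TUBA3D: ATGCGCGAGTGTatctctatccacgtgggg
TUBB: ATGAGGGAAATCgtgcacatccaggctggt
TUBB4B: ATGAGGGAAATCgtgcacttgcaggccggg
TUBB3: ATGAGGGAGATCgtgcacatccaggccggc
TUBB6: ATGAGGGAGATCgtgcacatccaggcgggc
TUBB1: ATGCGTGAAATTgtccatattcagattggc
TUBG1: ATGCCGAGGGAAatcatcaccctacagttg
TUBD1: ATGTCAATTGTAacagtgcaacttggtcag

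All 8 alpha-tubulin genes carried the same first 4 codons up to synonymous bases, and so did all 8 beta-tubulin genes within their class, whereas TUBG1, TUBG2, TUBD1 and TUBE1 had neither set. Since every gene of a class carries them, these codons cannot tell genes called higher from genes called lower within the class. Whether autoregulation had a part in any change was not tested. TTC5 itself had a log2 fold change of -0.35 (SE 0.10, edgeR adjusted p = 0.0726), which did not pass the threshold, and -0.66 with library size alone, which did (adjusted p = 0.00191).

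Of the 43 genes, 34 passed the filter on low counts. The other 9 had at most 12 counts in any library: DCX and MAP6, which stabilise neuronal microtubules, the stathmins STMN2 and STMN4, the alpha-tubulins TUBA3C, TUBA3E and TUBA8, and the beta-tubulins TUBB2B and TUBB8. Among the 34 tested, 9 were called higher with r-CRMP2, against 28.2% of all genes tested, and 11 were called lower, against 30.1% of all genes tested. That is 26.5% and 32.4% of the tested members, near the background in both directions. Over both directions, 58.2% of all genes tested were called. The median log2 fold change was 0.02 over the members and -0.03 over all genes tested. Past the additional threshold of an absolute log2 fold change of 1, no member rose in edgeR or in DESeq2 (5.12% of all genes tested did in edgeR, and the highest member value was 0.84, for STMN3) and 5 fell (8.86% of all genes tested did): MAP1A, MAP2, TUBA3D, TUBB1 and TUBB4A. This count was 3 without r-CRMP2 replicate 3, 2 with at least 10 counts required in every library and 2 when the test itself was set against a 2-fold change. TUBA3D, TUBB1 and TUBB4A were over the filter level in all 3 untreated libraries but in 0, 2 and 1 of the r-CRMP2 libraries, so they were tested only through the group where they were high. The groups did not overlap for 12 tested members that were higher in the r-CRMP2 group, against 30.9% of all genes tested, and for 11 that were lower, against 33.3%. With library size alone, 2 members were called higher (13.4% of all genes tested) and 21 lower (52.1%), and the 2 higher genes were TUBA4A and TUBB3.

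**Figure D1:**
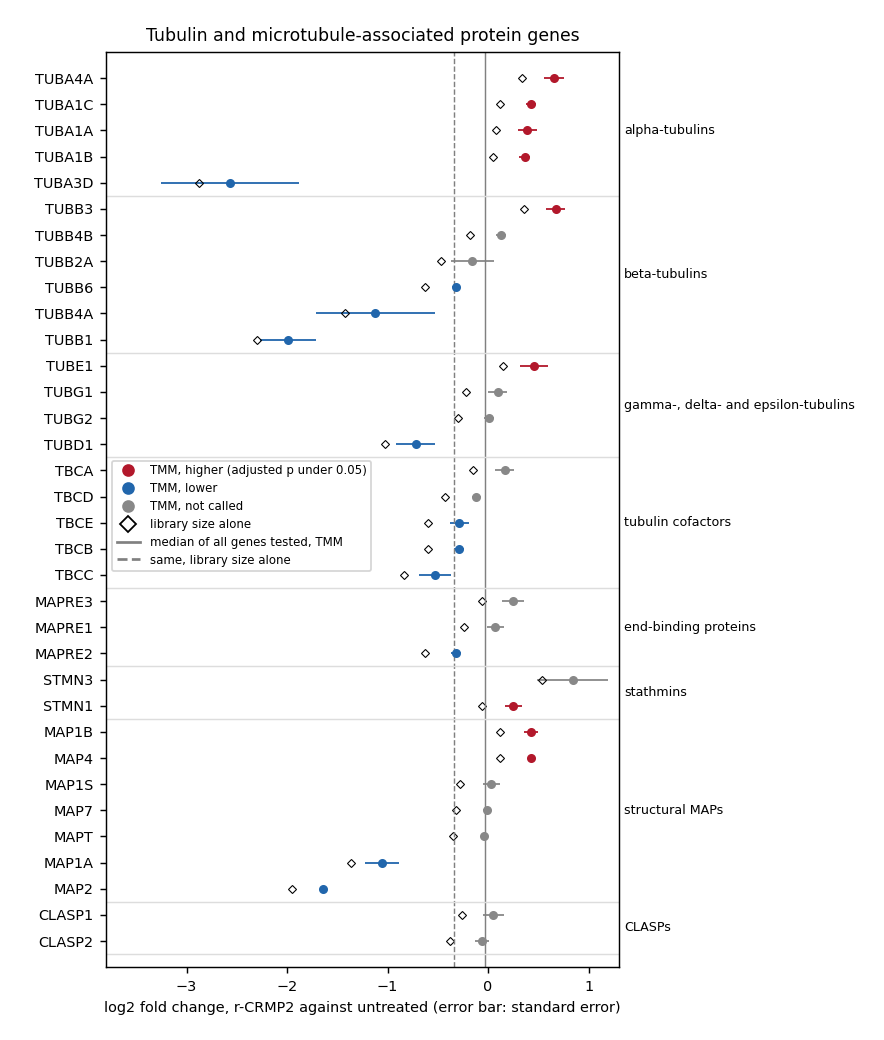
The log2 fold change of r-CRMP2 against untreated libraries is plotted for the 34 tested genes, grouped by role; filled points are TMM-scaled values with their standard error, coloured by call, and open diamonds are values with library size alone. Vertical lines mark the median of all genes tested, -0.03 with TMM (solid) and -0.34 with library size alone (dashed), and MAP2, MAP1A, TUBA3D, TUBB1 and TUBB4A lie far below both.

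Alpha-tubulin is the subunit of the dimer that faces the minus end of the filament. Of the 5 alpha-tubulins tested, 4 were called higher (TUBA1A, TUBA1B, TUBA1C and TUBA4A) and TUBA3D was called lower. Among all genes tested, 28.2% were called higher and 30.1% lower. With library size alone, 1 of the 5 was called higher and 1 lower. TUBA4A (chromosome 2, 220114433 to 220119330, minus strand, hg19) read 133, 112 and 116 CPM untreated and 172, 203 and 193 CPM with r-CRMP2. Every treated library was above every untreated one. On the log2 scale the change was 0.65 (SE 0.10, edgeR adjusted p = 4.29e-07), and it was 0.34 with library size alone (adjusted p = 2.85e-04), so TUBA4A was called higher under both scalings. STK16, a kinase gene on the opposite strand whose transcripts share 25.6% of the 100-base windows of TUBA4A, had a log2 fold change of -0.30.

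TUBA1B (chromosome 12, 49521565 to 49525304, minus strand) was the most abundant alpha-tubulin mRNA. It read 654, 649 and 694 CPM in the untreated libraries and 819.6, 911 and 837 CPM in the treated ones. TUBA1B had a log2 fold change of 0.36 (SE 0.06, edgeR adjusted p = 7.33e-05), but 0.05 with library size alone (adjusted p = 0.424), so the call rests on the scaling. Relative to the median gene, TUBA1B was 0.39 higher. The scaling shifts all genes alike and leaves this value nearly unchanged, so the value does not bear on the call. TUBA1C (0.43, adjusted p = 9.36e-06) and TUBA1A (0.39, adjusted p = 1.13e-04) were also called higher in the edgeR fit with TMM, and with library size alone their values of 0.12 and 0.08 did not pass (adjusted p = 0.0745 and 0.346). The 3 genes lie on chromosome 12 and are much alike, with 97.2% of coding bases identical between TUBA1A and TUBA1B, so how the counting split reads among them is uncertain. Rows for antisense genes held 50.9% to 52.9% as many counts as TUBA1B and 37.6% to 40.1% as many as TUBA1C, and whether strand was used in counting is not given in the sources used here, so these values are uncertain as well.

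TUBA3D, best known from testis, was scarce. Its raw counts were 12, 25 and 24 without treatment and 3, 5 and 0 with it, so the groups did not overlap. The log2 fold change was -2.57 (SE 0.69, edgeR adjusted p = 0.00168), and it was -1.95 without r-CRMP2 replicate 3 (adjusted p = 0.0116). TUBA3E, with 98.8% of coding bases in common, can share its reads.

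**Figure D2:**
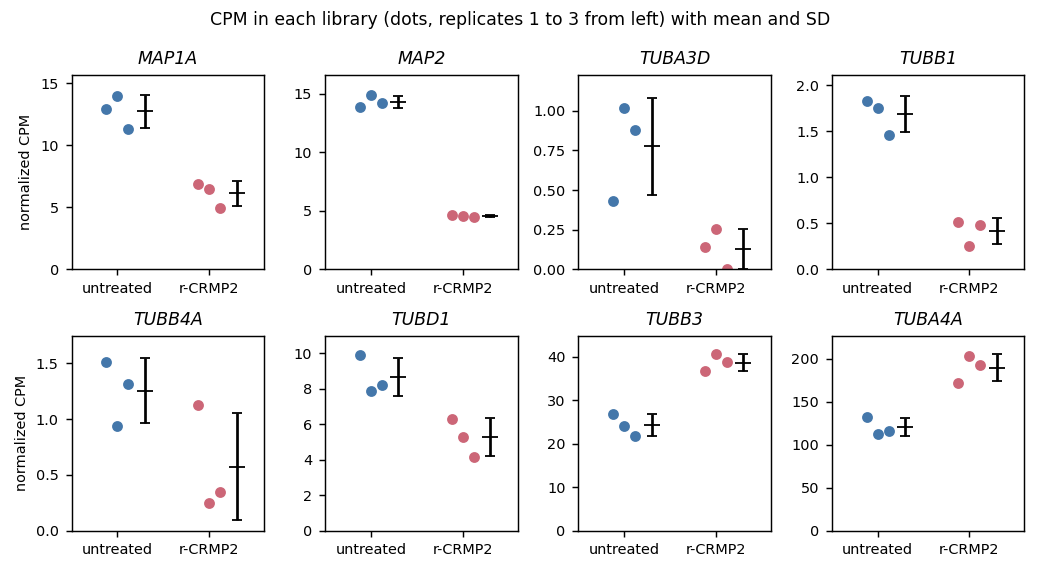
TMM-normalized CPM is plotted for each of the 3 untreated and 3 r-CRMP2 libraries in 8 called genes, the 5 past both thresholds and the next 3 largest changes with a mean count of at least 50, with the mean and SD of each group beside the dots; each panel has its own axis from 0. MAP1A, MAP2, TUBA3D, TUBB1 and TUBD1 fell and TUBB3 and TUBA4A rose with no overlap, while TUBB4A in r-CRMP2 replicate 1 (1.12 CPM) lies inside the untreated range.

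Beta-tubulin binds the exchangeable GTP whose hydrolysis drives microtubule turnover. Of the 6 beta-tubulins tested, TUBB3 was called higher, and TUBB1, TUBB4A and TUBB6 were called lower. The shares of all genes tested were 28.2% higher and 30.1% lower. TUBB3 (chromosome 16, 89988417 to 90002505, plus strand), the neuronal isotype that tumours of other tissues can also make, read 26.8, 24.1 and 21.8 CPM untreated and 36.7, 40.5 and 38.7 CPM with r-CRMP2. All treated libraries were higher than all untreated ones. This was a log2 fold change of 0.67 (SE 0.10, edgeR adjusted p = 1.51e-06), and it remained called with library size alone (0.36, adjusted p = 0.00113). In the GENCODE transcripts, 89.0% of the 100-base windows of TUBB3 also occur in a readthrough gene at the same place, so counts of the 2 genes cannot be separated by sequence.

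TUBB1 (chromosome 20, 57594309 to 57601709, plus strand), the isotype of platelets and megakaryocytes, read 1.83, 1.75 and 1.46 CPM untreated and 0.515, 0.253 and 0.479 CPM treated. The groups were well apart at this low level, which corresponds to raw counts of 51, 43 and 40 against 11, 5 and 11. This gave a log2 fold change of -1.99 (SE 0.28, edgeR adjusted p = 8.25e-05). Its transcripts share 32.1% of their 100-base windows with the neighbouring gene of an ATP synthase subunit, listed in the files as ATP5E, whose log2 fold change was 0.19. TUBB4A, the brain isotype (chromosome 19, 6494330 to 6502859, minus strand), read 1.51, 0.937 and 1.32 CPM untreated and 1.12, 0.253 and 0.348 CPM treated, and here the groups overlapped. Its log2 fold change of -1.12 (SE 0.60, edgeR adjusted p = 0.0329) lost the threshold without untreated replicate 1 or 3 (-0.97 and -1.09) or r-CRMP2 replicate 2 or 3 (-0.78 and -0.84), with an adjusted p of up to 0.142. Without r-CRMP2 replicate 1, the value was -2.02 and passed.

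TUBB6 (chromosome 18, 12307668 to 12329825, plus strand), an isotype whose excess is known to disorganise microtubules, was lower in every treated library. It read 90.0, 88.5 and 95.3 CPM untreated and 72.5, 74.3 and 72.5 CPM treated. On the log2 scale it fell by 0.32 (SE 0.03, edgeR adjusted p = 2.11e-04) and by 0.63 with library size alone. AFG3L2, a mitochondrial protease gene that overlaps TUBB6 on the opposite strand, had a log2 fold change of -0.40. TUBB4B (chromosome 9, 140135711 to 140138159, plus strand), the most abundant numbered beta-tubulin, read 409.8, 366 and 379 CPM untreated and 424, 416 and 423 CPM treated. Its log2 fold change of 0.13 did not pass (SE 0.05, edgeR adjusted p = 0.082), and with library size alone the value was -0.18 and did pass (adjusted p = 0.00873), so its direction depends on the scaling. TMM-scaled TUBB4B was called higher without untreated replicate 1 (adjusted p = 0.0326) or r-CRMP2 replicate 2 (adjusted p = 0.0374), and by DESeq2 on all libraries (0.15, adjusted p = 0.0342). TUBB2A had a log2 fold change of -0.16 (edgeR adjusted p = 0.527), and 54.4% of its 100-base windows also occur in TUBB2B.

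The makeup of each tubulin pool does not depend on the scaling between libraries. It was taken as the share of each isotype in the summed TPM (a level per length of gene, scaled to the same total in each library) of its class, and is described without a test. In the beta pool with TUBB included, the share of TUBB was 62.5%, 62.9% and 63.1% untreated and 71.1%, 72.7% and 72.1% with r-CRMP2. TUBB thus took a larger part of the pool in every treated library. The share of TUBB4B was 32.0%, 31.4% and 31.3% untreated and 24.9%, 23.4% and 24.1% treated. That of TUBB6 was 3.38%, 3.64% and 3.78% untreated and 2.04%, 2.01% and 1.98% treated. The shares of these 2 isotypes were lower in every treated library than in every untreated one, although TUBB4B itself was not lower in TMM-scaled CPM. TUBB3 had a mean share of 1.57% ± 0.131 untreated and 1.75% ± 0.0475 treated (SD, n = 3 in each group). The remaining beta isotypes each stayed under 0.3% of the pool in every library.

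In the alpha pool the makeup moved less. TUBA1B had a mean share of 60.3% ± 1.28 untreated and 58.6% ± 0.411 treated, and the groups did not overlap by a narrow margin (SD, n = 3 in each group). TUBA1C had 25.28% ± 1.25 and 25.71% ± 0.894, and TUBA1A had 6.91% ± 0.567 and 6.85% ± 0.121, differences smaller than the spread between replicates. TUBA4A went from 8.10%, 7.08% and 6.98% in the untreated libraries to 8.27%, 8.88% and 9.18% in the treated ones, with the highest untreated value just under the lowest treated value. The summed alpha TPM was 0.822 ± 0.0308 of the summed beta TPM untreated and 0.757 ± 0.0275 treated. The groups overlapped in this ratio, with 0.7879 in r-CRMP2 replicate 2 and 0.7869 in untreated replicate 1. The outside member TUBB, the main beta-tubulin mRNA here, was itself higher, from 1566, 1439 and 1499 CPM to 2375, 2536 and 2484 CPM, a log2 fold change of 0.72 (SE 0.04, edgeR adjusted p = 1.57e-08) that was 0.40 with library size alone.

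**Figure D3:**
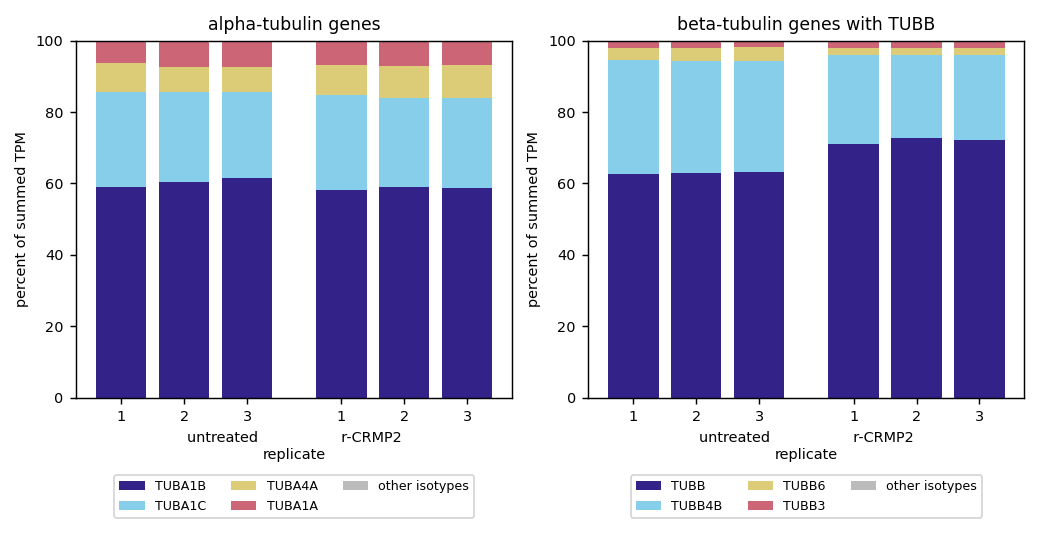
Stacked bars give each isotype's percent of the summed TPM of the alpha-tubulin genes (left) and of the beta-tubulin genes with TUBB (right) in each of the 6 libraries. TUBB takes 62.5% to 63.1% of the beta pool in untreated and 71.1% to 72.7% in r-CRMP2 libraries, while TUBB4B and TUBB6 take less.

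Gamma-tubulin nucleates microtubules at the centrosome, and delta- and epsilon-tubulin are needed for the triplet microtubules of centrioles. TUBD1 (chromosome 17, 57936840 to 57970306, minus strand) read 9.89, 7.86 and 8.22 CPM untreated and 6.32, 5.31 and 4.18 CPM treated, lower in every treated library. This gave a log2 fold change of -0.72 (SE 0.20, edgeR adjusted p = 5.68e-04). TUBE1 moved the other way, from 6.08, 7.58 and 5.52 CPM to 8.33, 9.05 and 8.88 CPM. Its log2 fold change of 0.46 (SE 0.14, edgeR adjusted p = 0.00818) was 0.15 with library size alone and did not pass there (adjusted p = 0.374). FAM229B overlaps TUBE1 on the opposite strand, with 501 counts over all libraries against 1067, and had 0.16 (adjusted p = 0.545). The gamma-tubulins were not called: TUBG1 (chromosome 17, 40761358 to 40767256, plus strand) read 93.5, 76.7 and 91.6 CPM untreated and 95.7, 91.3 and 92.5 CPM treated, so the groups overlapped. TUBG1 had a log2 fold change of 0.09 with TMM (SE 0.09, edgeR adjusted p = 0.286), and TUBG2 had 0.01 (adjusted p = 0.937). With library size alone both were called lower, TUBG1 at -0.22 (adjusted p = 0.0170) and TUBG2 at -0.30 (adjusted p = 0.00240).

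Tubulin cofactors A to E take tubulin from the chaperonin and assemble the dimer. Of the 5 genes, none was called higher (28.2% of all genes tested were), and TBCB, TBCC and TBCE were called lower (30.1% were). TBCC, the cofactor that triggers release of the finished dimer, read 11.8, 13.2 and 13.7 CPM untreated and 9.69, 9.96 and 7.23 CPM treated, with no overlap. TBCC had a log2 fold change of -0.53 (SE 0.16, edgeR adjusted p = 0.00155). TBCB had -0.29 (adjusted p = 0.00294) and TBCE had -0.29 (adjusted p = 0.0313), and TBCE lost the threshold without untreated replicate 3 or r-CRMP2 replicate 2 or 3 (adjusted p up to 0.172) and with DESeq2 (adjusted p = 0.0685). Both overlap another gene on the opposite strand, POLR2I for TBCB and B3GALNT2 for TBCE. POLR2I had a log2 fold change of -0.06 (edgeR adjusted p = 0.594). B3GALNT2, with 6706 counts over all libraries against 1828 for TBCE, had -0.20 and was called lower (adjusted p = 0.0300). The strand setting is not known, so the TBCE value is uncertain. TBCD (chromosome 17, 80709940 to 80901062, plus strand), the cofactor with the highest mean level per length over the 6 libraries although TBCA was above it in the treated group (49.6 against 45.0 TPM), read 106, 118 and 109.5 CPM untreated and 101, 103 and 105 CPM treated. It was slightly lower in each treated library, but its log2 fold change of -0.12 did not pass (SE 0.05, edgeR adjusted p = 0.123), whereas with library size alone it was -0.43 and did (adjusted p = 1.62e-05). TBCA, which holds beta-tubulin, had 0.16 (adjusted p = 0.0781), and it was called higher without r-CRMP2 replicate 3 (0.24, adjusted p = 0.0181) and with RLE size factors (adjusted p = 0.0473). With library size alone TBCA turned to -0.15 (adjusted p = 0.101).

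End-binding proteins ride on growing plus ends and recruit other factors there. MAPRE2 was called lower, from 24.1, 22.4 and 24.8 CPM to 19.2, 19.3 and 18.5 CPM, a log2 fold change of -0.32 (SE 0.05, edgeR adjusted p = 0.00288). MAPRE1, the main member (chromosome 20, 31407699 to 31438211, plus strand), read 124, 128 and 138 CPM untreated and 126, 149 and 136 CPM treated, with overlap. MAPRE1 had a log2 fold change of 0.07 with TMM (SE 0.08, edgeR adjusted p = 0.400). With library size alone it was -0.24 and called lower (adjusted p = 0.00406). MAPRE3 had 0.25 (adjusted p = 0.095) and was called higher without r-CRMP2 replicate 3 (0.33, adjusted p = 0.0470). With library size alone it turned to -0.06 (adjusted p = 0.685).

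Stathmins bind free tubulin dimers and promote disassembly. STMN1 (chromosome 1, 26210677 to 26233368, minus strand), the form found in dividing cells, read 203, 195 and 207 CPM untreated and 227, 269 and 224 CPM treated. The groups did not overlap, and the log2 fold change was 0.25 (SE 0.09, edgeR adjusted p = 0.00478), but with library size alone the direction turned to -0.06 (adjusted p = 0.420). STMN3, a neuronal form, was near 1 CPM, with raw counts of 23, 9 and 21 untreated and 31, 22 and 23 treated. It was over the filter level in 2 untreated and 3 r-CRMP2 libraries, so only the group where it was high reached that level in full. Its log2 fold change of 0.84 did not pass (SE 0.36, edgeR adjusted p = 0.0536), but did with RLE size factors (0.86, adjusted p = 0.0476).

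Structural MAPs line the filament and stabilise it. Of 7 tested, MAP4 and MAP1B were called higher (28.2% of all genes tested were), and MAP2 and MAP1A were called lower (30.1% were). MAP2 (chromosome 2, 210288771 to 210598834, plus strand), the MAP of neuronal dendrites, read 13.9, 14.9 and 14.2 CPM untreated and 4.68, 4.60 and 4.48 CPM with r-CRMP2. The 2 groups were far apart and each was tight. The log2 fold change of MAP2 was -1.64 (SE 0.03, edgeR adjusted p = 1.09e-09), and it lay between -1.66 and -1.61 when each library was left out in turn. MAP1A (chromosome 15, 43809806 to 43823818, plus strand), a MAP of mature neurons, read 12.98, 13.98 and 11.33 CPM untreated and 6.93, 6.52 and 4.96 CPM treated, again without overlap. MAP1A had a log2 fold change of -1.06 (SE 0.17, edgeR adjusted p = 2.17e-06), and without r-CRMP2 replicate 3 it was -0.92 (adjusted p = 4.01e-05), short of the fold change threshold. No 100-base window of MAP2 or MAP1A occurs in another gene's transcripts.

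MAP4 (chromosome 3, 47892180 to 48130769, minus strand), the main MAP of non-neuronal cells, read 444, 449 and 437 CPM untreated and 592, 579 and 615 CPM treated. Every treated library was higher, by a log2 fold change of 0.42 (SE 0.03, edgeR adjusted p = 5.25e-06), which with library size alone was 0.11 and did not pass (adjusted p = 0.0700). MAP1B, the early neuronal relative of MAP1A, read 88.0, 82.2 and 84.4 CPM untreated and 121, 105 and 117 CPM treated. Its log2 fold change of 0.43 (SE 0.07, edgeR adjusted p = 1.94e-05) was 0.12 with library size alone, where it did not pass (adjusted p = 0.144). MAP1A and MAP1B thus lay on opposite sides of the median gene, at -1.03 and 0.46 relative to it. The choice of scaling leaves such values nearly unchanged, because it shifts all genes alike. MAPT, which encodes tau, had a log2 fold change of -0.04 (edgeR adjusted p = 0.680), MAP7 had -0.01 (adjusted p = 0.888) and MAP1S had 0.03 (adjusted p = 0.750). With library size alone these 3 were called lower, at -0.35 for MAPT, -0.32 for MAP7 and -0.28 for MAP1S. Of the neuronal markers, 9 of the 10 on the list were under 1 CPM in every library, all but SNAP25, and their summed level was 7.31 to 8.02 CPM untreated and 6.57 to 7.62 CPM treated.

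CLASPs bind behind the plus end and prevent shrinkage. CLASP1 (chromosome 2, 122095352 to 122407052, minus strand) read 57.5, 52.7 and 54.0 CPM untreated and 57.7, 50.1 and 62.5 CPM treated, and the groups overlapped. Its log2 fold change was 0.05 with TMM (SE 0.10, edgeR adjusted p = 0.580) and -0.26 with library size alone. CLASP2 had -0.06 (edgeR adjusted p = 0.473). With library size alone both were called lower, CLASP2 at -0.37.

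Promoters of the 2 structural MAPs that fell are shown beside that of the alpha-tubulin that rose most. They set out what lies just before a start of each gene. Each is the 250 bases before a single RefSeq transcription start of the gene on GRCh38.p14, and any other starts were not examined. The bases run 5′ to 3′ on the gene's strand, in lower case. Each CCAAT (or ATTGG, the same motif on the other strand) is in capitals. The windows are chr2:209579082-209579331 (plus strand) for MAP2, chr15:43510704-43510953 (plus strand) for MAP1A and chr2:219253919-219254168 (minus strand) for TUBA4A.
MAP2: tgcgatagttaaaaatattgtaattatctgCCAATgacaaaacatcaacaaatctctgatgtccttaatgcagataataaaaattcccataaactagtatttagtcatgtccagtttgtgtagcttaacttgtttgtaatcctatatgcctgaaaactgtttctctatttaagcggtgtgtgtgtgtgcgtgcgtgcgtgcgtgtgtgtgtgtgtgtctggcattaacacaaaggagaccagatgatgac
MAP1A: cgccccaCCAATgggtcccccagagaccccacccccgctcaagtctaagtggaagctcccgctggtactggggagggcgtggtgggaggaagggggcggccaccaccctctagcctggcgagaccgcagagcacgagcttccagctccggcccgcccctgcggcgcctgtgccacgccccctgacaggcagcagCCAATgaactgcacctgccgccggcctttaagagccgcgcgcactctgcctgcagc
TUBA4A: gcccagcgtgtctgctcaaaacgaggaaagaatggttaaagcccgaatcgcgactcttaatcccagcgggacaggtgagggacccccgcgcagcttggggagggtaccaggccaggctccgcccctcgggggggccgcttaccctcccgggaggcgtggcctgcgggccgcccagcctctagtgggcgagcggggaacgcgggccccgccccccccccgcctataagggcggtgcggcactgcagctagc

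The letters CCAAT, the motif bound by the factor NF-Y, occurred on either strand 1 time in the MAP2 window, 2 times in that of MAP1A and 0 times in that of TUBA4A. Other members called higher had 2 (MAP4 and TUBA1A), 1 (TUBA1C) or 0 (TUBA1B, TUBB3, MAP1B, STMN1 and TUBE1). Other members called lower had 5 (TUBA3D), 2 (TUBB4A and TBCC), 1 (TBCE) or 0 (TUBB1, TUBB6, TUBD1, TBCB and MAPRE2). The 3 windows shown therefore do not stand for the called members. CCAAT was found in 33.0% of 27326 promoters of the same length and in 16 of the 39 members with an entry (41.0%). GGGCGG, the GC box, was found in 42.2% of all promoters and 22 of the 39 (56.4%), and GCGTG in 31.9% and 19 of the 39 (48.7%). ACGTG was found in 18.6% of all promoters and 12 of the 39 (30.8%). Each motif was thus more frequent among the members than among all promoters, a difference that was not tested. These are matches of letters in windows, not measured sites.

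Other microtubule genes, taken from lists chosen by function, were read the same way, and their counts stand against 28.2% of all genes called higher and 30.1% called lower. Gamma-tubulin ring complex and nucleation genes counted 6 higher and 3 lower of 20 tested (30% and 15%), with a median log2 fold change of 0.08. TUBGCP2, a core subunit of the ring, read 169, 157 and 145 CPM untreated and 322, 355 and 362 CPM treated, a log2 fold change of 1.14 (SE 0.08, edgeR adjusted p = 1.10e-10). MZT1, a small protein of the same complex, had 0.78 (adjusted p = 2.17e-08), while the pericentriolar scaffold gene PCNT had -0.67 (adjusted p = 2.18e-07). All 3 kept their call and direction with library size alone, at 0.83, 0.47 and -0.98.

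Of the enzymes that modify tubulin, 17 were tested, and 5 were called higher (29.4%) and 4 lower (23.5%). The 3 past both thresholds all fell. VASH1 and VASH2 encode the vasohibins, which cut the terminal tyrosine from alpha-tubulin, and TTL encodes the ligase that puts it back. VASH1 read 25.0, 27.0 and 27.5 CPM untreated and 13.4, 10.2 and 11.9 CPM treated, a log2 fold change of -1.16 (SE 0.12, edgeR adjusted p = 1.14e-08). VASH2 had -1.36 (adjusted p = 3.57e-05) and the glutamylase TTLL11 had -1.26 (adjusted p = 7.58e-04). TTL had -0.45 (adjusted p = 1.96e-05), so the mRNAs of both the removing and the restoring enzymes were lower. HDAC6, the tubulin deacetylase, was higher, with 0.64 (adjusted p = 1.07e-07), and was called with library size alone too, at 0.33.

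Folding genes, which include the chaperonin CCT and the prefoldins that feed it, counted 6 higher (31.6%) and 1 lower (5.26%) of 19. TBCCD1, a relative of TBCC, was the 1 that fell, with 10.4 ± 0.672 CPM untreated and 4.61 ± 0.727 CPM treated (SD, n = 3 per group), or -1.17 on the log2 scale (SE 0.14, edgeR adjusted p = 7.75e-07). The prefoldin gene PFDN2 had 0.65 (adjusted p = 1.55e-07) and PFDN5 had 0.52 (adjusted p = 2.64e-06), and these were the 2 folding genes called higher under both scalings. Among 21 severing and end-binding regulators, 6 were higher (28.6%) and 9 lower (42.9%), and TACC2 was past both thresholds at -1.13 (adjusted p = 8.85e-10). SPAST, the severing enzyme spastin, had -0.69 (adjusted p = 1.22e-04), and the plus-end polymerase gene CKAP5 had 0.66 (adjusted p = 5.30e-08). Among 24 other MAPs and their kinases, 9 were higher (37.5%) and 6 lower (25.0%). TPPP, which promotes tubulin polymerisation, rose from 27.5 ± 4.60 to 62.8 ± 6.06 CPM, a log2 fold change of 1.19 (SE 0.16, edgeR adjusted p = 7.76e-09), whereas MTUS2 (-1.65, adjusted p = 1.66e-06) and EML5 (-1.39, adjusted p = 0.00475) fell.

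Spindle and mitotic genes were read against the same shares of all genes tested, 28.2% called higher and 30.1% called lower. Of 15 transcripts typical of the G2 and M phases, 14 were called higher and CENPF was called lower, with a median log2 fold change of 0.57. CENPF was not called without untreated replicate 1 (adjusted p = 0.121) or r-CRMP2 replicate 2 (adjusted p = 0.122), nor by DESeq2 (adjusted p = 0.215). With library size alone 10 were higher and 1 lower, and the median was 0.26. UBE2C (1.40, edgeR adjusted p = 3.92e-11) and AURKB (1.07, adjusted p = 2.80e-10) were past both thresholds, and their summed level with the rest of the list was 2351 to 2637 CPM untreated and 3454 to 3766 CPM treated. The spindle MAPs TPX2 (0.72, adjusted p = 5.90e-09) and PRC1 (0.55, adjusted p = 1.55e-07) rose as well. The part of the cell cycle in the tubulin values was not tested. Of the markers of other cells, fibroblast genes summed to 606 to 679 CPM untreated and 529 to 553 CPM treated, mostly COL1A1, with FAP under 1 CPM. Of 9 tested, 3 were called higher (THY1, COL1A2 and LUM) and 3 lower (COL1A1, POSTN and PDGFRB), with a median log2 fold change of 0.17 that was -0.14 with library size alone. Leukocyte and endothelial genes summed to 28.3 to 32.3 CPM and 73.8 to 79.8 CPM, mostly CD68, with PTPRC and CD3E not tested for low counts. Of 4 tested, CD68 was called higher (log2 fold change 1.69) and CDH5 lower (-1.96), and PECAM1 (-1.41) and VWF (-0.45) were not called, with a median of -0.93. Their part in the tubulin values was not tested.

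**Figure D4:**
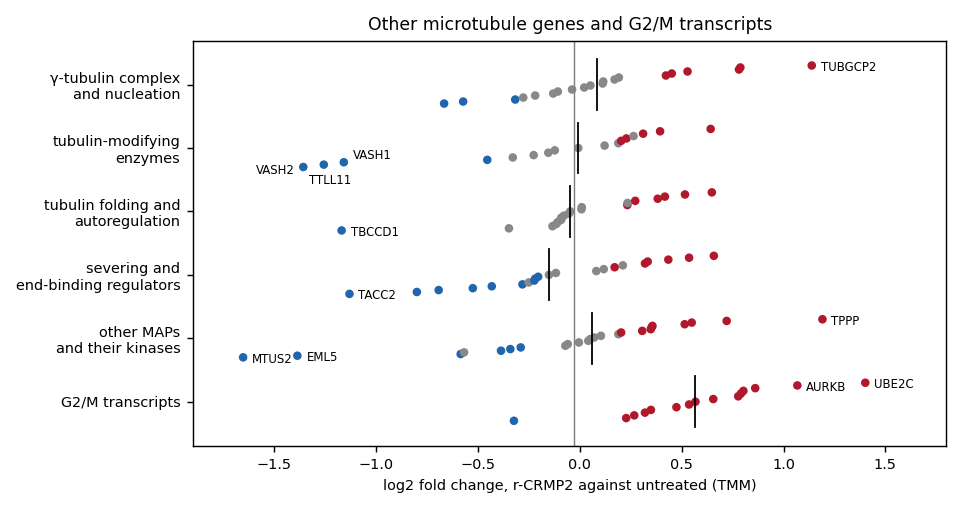
Each point is a tested gene's TMM-scaled log2 fold change, r-CRMP2 against untreated, in 5 lists of other microtubule genes and the G2/M transcripts; red is called higher, blue lower and grey not called, black bars are list medians and the grey line is the median of all genes tested. Labelled genes have an absolute value over 1, and the G2/M list has the highest median, 0.57.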

How the data were processed

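Polyadenylated RNA of 6 A2780 libraries was sequenced with paired ends. The counts per gene deposited by the authors were raw, and the TPM values the authors deposited beside them followed from those counts and gene lengths. The submitters' processing notes name FastQC, HISAT2, DESeq2 and hg19. The counting tool and strand setting are not given in the sources used here. The deposited coordinates are hg19. Reference sequences were from GENCODE (GRCh38) and RefSeq promoters (GRCh38.p14), and protein sequences were not used here.

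The main test was edgeR's quasi-likelihood fit in R 4.3.3 (packages edgeR 4.0.16 and limma 3.58.1), with TMM and filterByExpr, adjusted by Benjamini-Hochberg over 16222 genes. Each SE reflects how far log2 CPM (prior count 2) varied between replicates. The test was checked on simulated data with few genes changed and a fixed spread. These data had many called genes, so that check does not bear on the choice of scaling. Genes given in full are members past both thresholds, then the largest called changes with a mean count of at least 50 up to 8, and the most abundant member of each role. From other lists, those past both thresholds were named. TUBB6, TUBE1, TBCC, MAPRE2, MAP1B and the remaining genes of the other lists were added after their values were seen. Members and lists were chosen with earlier results of these data known. Alternatives were RLE size factors, library size alone, DESeq2 (1.42.0), other count filters, a test against a fold change of 2, a replicate block, and leaving out each library.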

Additional observations from a re-analysis of the deposited data

How the results depend on the processing

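The numbers of members called were moved most by library size alone in place of TMM, which gave 2 higher and 21 lower and a member median of -0.29. There, 13.4% of all genes tested were called higher and 52.1% lower. Beside these shares, 11 of 20 nucleation genes and 8 of 17 modifying enzymes were called lower. So were 12 of 19 folding genes and 14 of 24 other MAPs. Called higher were 1 of the 17 modifying enzymes and 2 of the 19 folding genes. The same call was made for 2 of 21 severing and end-binding regulators and 3 of the 24 other MAPs. The direction turned for TUBB4B (-0.18), TUBG1 (-0.22), MAPRE1 (-0.24), STMN1 (-0.061), CLASP1 (-0.26), MAPRE3 (-0.06), TBCA (-0.15), MAP1S (-0.28) and TUBG2 (-0.30), since all values shifted by -0.31. With at least 10 counts in every library, 2 members were past both thresholds lower, and 5 nucleation genes were lower. A test against a fold change of 2 also left 2. Without the low-count filter the member median was -0.020. With DESeq2, 0 G2/M transcripts were lower, and the cause was not tested. When 1 library was left out, members past both thresholds lower ranged from 3 (without r-CRMP2 replicate 3) to 5, folding genes lower from 1 to 2, G2/M transcripts lower from 0 to 1, members higher from 9 to 11 and lower from 9 to 11. CLASP1 ranged from -0.017 (without r-CRMP2 replicate 3) to 0.14. The replicate numbers did not pair the libraries (correlations of same-numbered deviations -0.02, 0.0038 and -0.03 across genes), and a fit with that number as a block gave 9 members higher and 11 lower and changed no call among them or the other lists' counts.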
